A study of Mus musculus with 26 samples.

Results

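The genes described are the TAM receptors Axl, Mertk and Tyro3 and their ligands Gas6 and Pros1. These 5 genes were taken by name, and all 5 were found among the 47730 features of the count table and passed the filter on low counts, which kept 16637 features. Their levels were followed in 26 RNA-seq libraries of E-A14, a Her2-expressing mouse mammary tumour line that carries an activated rat Neu transgene. FVB/N mice aged 6 to 8 weeks carried the implanted cells in a mammary fat pad. Depleted mice received 100 µg each of anti-CD4 and anti-CD8a antibody, and control mice 100 µg each of rat IgG2a and rat IgG2b, 2 times a week from 2 weeks before implantation. Tumours were taken on day 20 from 6 depleted mice and on day 47 from 6 control mice, so an effect of depletion and an effect of day cannot be told apart. From each tumour, live Her2+ cells without CD90, CD105 or CD45 on their surface were sorted into an EpCAM-negative and an EpCAM-positive fraction. That gave 4 tumour groups, named depleted EpCAM-negative, depleted EpCAM-positive, control EpCAM-negative and control EpCAM-positive, with 6 libraries each, and the cultured line gave 2 libraries. All groups come from 1 tumour line, and the antibodies target CD4 and CD8a, so depleted mice are not hosts without an immune system. Whether the 2 cultures were grown separately is not stated in the labels, so their spread may be technical.

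TAM receptors are receptor tyrosine kinases. The ligands Gas6 and protein S (the product of Pros1) hold on to phosphatidylserine on dying cells and vesicles through a vitamin K-dependent Gla domain and present it to the receptors, which drives engulfment and lowers innate immune responses. Gas6 binds all TAM receptors, whereas protein S binds Tyro3 and Mertk. In breast tumours Axl is known as a receptor of cells in a mesenchymal state and Mertk as a receptor of macrophages that clear dead cells.

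A library held 17559520 to 25601999 counts in depleted tumours and 26895429 to 38740143 in control tumours, and the totals were 27253363 and 35059744 in the cultures. Depleted and control libraries did not overlap in depth. Levels are CPM, that is counts scaled to a common library size after TMM normalization, and errors are SDs over libraries (n = 6 in each tumour group, n = 2 for the cultures). Fold changes are log2 values from edgeR's quasi-likelihood F test. The test reports no standard error, so the one printed is the absolute log2 fold change divided by the square root of F. A gene was called when its Benjamini-Hochberg adjusted p over all tested features was under 0.05. The labels of the fractions were checked against the sort markers. Epcam averaged 140 ± 83.4 CPM in depleted EpCAM-negative against 2437 ± 241 CPM in depleted EpCAM-positive cells, and 1.63 ± 0.546 CPM in control EpCAM-negative against 1183 ± 239 CPM in control EpCAM-positive cells. Zeb1, a transcription factor of the mesenchymal state, averaged 86.2 CPM in depleted EpCAM-negative against 4.61 CPM in depleted EpCAM-positive cells, and 84.8 CPM in control EpCAM-negative against 25.4 CPM in control EpCAM-positive cells. The rat Neu transgene was read in every group, at means of 305 to 577 CPM.

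Axl was the receptor with by far the most transcript in every group, and it was higher in the EpCAM-negative fraction under both treatments. In depleted EpCAM-negative cells the 6 libraries ran from 717 CPM through a median of 855 CPM to 1084 CPM, and in depleted EpCAM-positive cells from 397 through 453 to 568.3 CPM. In control EpCAM-negative cells they ran from 621 through 639.6 to 698 CPM, and in control EpCAM-positive cells from 195 through 282 to 346 CPM. No library of an EpCAM-negative group reached down to its EpCAM-positive counterpart. The cultures had 946 and 1035 CPM, so the line carried Axl without a host, and the order of group means was culture, depleted EpCAM-negative, control EpCAM-negative, depleted EpCAM-positive and control EpCAM-positive. Only the cultures and the depleted EpCAM-negative libraries overlapped among neighbours in this order. The smallest spread relative to a mean among the groups of all 5 genes was that of Axl in control EpCAM-negative cells, with an SD of 27.4 CPM around 649 CPM.

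Between the fractions Axl differed by 0.89 ± 0.12 on the log2 scale in depleted tumours (edgeR adjusted p = 1.05e-06) and by 1.20 ± 0.12 in control tumours (edgeR adjusted p = 1.17e-08). The change of this contrast with treatment, depleted minus control, was −0.31 ± 0.16 and did not pass the test (edgeR adjusted p = 0.21). Axl was also higher in depleted than in control tumours in both fractions, by 0.42 ± 0.11 in EpCAM-negative cells (edgeR adjusted p = 0.00393) and by 0.73 ± 0.12 in EpCAM-positive cells (edgeR adjusted p = 1.34e-05). In bulk samples, more cells with a transcript and more transcript per cell cannot be told apart.

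Mertk, the receptor best known from phagocytes, moved in opposite directions between the fractions under the 2 treatments. The libraries of depleted EpCAM-negative cells ran from 2.22 through 2.88 to 6.32 CPM, against 12.2 through 27.8 to 38.7 CPM in depleted EpCAM-positive cells. The libraries of control EpCAM-negative cells ran from 14.9 through 28.3 to 43.9 CPM, against 8.28 through 16.8 to 22.6 CPM in control EpCAM-positive cells. Depleted EpCAM-negative cells lay below every library of the other tumour groups, and those other groups overlapped each other. The cultures had 0 and 10 Mertk counts, the second of them equal to 0.256 CPM.

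In depleted tumours Mertk was 7.02-fold lower in EpCAM-negative cells, a log2 fold change of −2.81 ± 0.35 (edgeR adjusted p = 5.43e-07). In control tumours it was higher in EpCAM-negative cells by 0.84 ± 0.32 with an edgeR adjusted p of 0.0489, and the groups overlapped. That call is at the edge of the threshold, and it was lost when any of 10 of the 12 libraries was left out, with log2 values from 0.68 to 0.90 and adjusted p-values up to 0.131. These 10 were control EpCAM-positive libraries 1, 2, 3, 5 and 6 and control EpCAM-negative libraries 2, 3, 4, 5 and 6. The difference between the 2 contrasts, depleted minus control, was −3.65 ± 0.47 (edgeR adjusted p = 3.89e-06), and it stayed between −3.87 and −3.48 under every alternative tried. Set against control cells of the same fraction, depleted EpCAM-negative cells had 7.78-fold less Mertk (log2 fold change −2.96 ± 0.35, edgeR adjusted p = 1.21e-07). In depleted against control EpCAM-positive cells the value was 0.70 ± 0.32, which did not pass the test (edgeR adjusted p = 0.0849). Without depleted EpCAM-positive library 2 it was 0.84 (edgeR adjusted p = 0.0375).

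Because CD45+ cells had been sorted away, macrophage markers were read beside Mertk. Summed over 20 macrophage markers, the libraries ran from 166 to 386 CPM in depleted EpCAM-negative cells and from 184 to 289 CPM in depleted EpCAM-positive cells. The sums ran from 66.1 to 82.8 CPM in control EpCAM-negative cells and from 125 to 302 CPM in control EpCAM-positive cells, and were 70.0 and 71.7 CPM in the cultures. The highest Mertk mean, 28.5 ± 9.91 CPM, was in control EpCAM-negative cells. Their mean marker sum of 72.0 CPM was near the 70.9 CPM of the cultures, but the markers behind the sums differed in part. Cd14 and Cd68 made most of the culture sum, at 35.6 and 32.6 CPM, and averaged 34.5 and 16.2 CPM in control EpCAM-negative cells. Compared with culture, 11 of the 20 markers were called higher in control EpCAM-negative cells (26.5% of all features) and 1, Cd68, lower (24.2%). Compared with control EpCAM-positive cells, 12 of the 20 were lower in them (14.5% of all features) and 2 higher (13.3%). These 2 were the scavenger receptor gene Cd163 and the Fc receptor chain gene Fcer1g, whose means were highest in control EpCAM-negative cells, like that of Mertk. Cd163 averaged 1.99 CPM in depleted EpCAM-negative, 0.768 CPM in depleted EpCAM-positive, 4.11 CPM in control EpCAM-negative, 1.88 CPM in control EpCAM-positive and 0.0160 CPM in cultured cells. Fcer1g averaged 3.72, 3.28, 5.38, 2.80 and 0.506 CPM in the same order of groups. In control EpCAM-negative cells Ptprc, which encodes CD45, averaged 0.0567 CPM and was at 0 in 2 libraries, and the complement gene C1qa averaged 0.442 CPM. Between 14 and 19 of the 20 markers had at least 1 count in those libraries, against 10 of 20 in each culture, where Ptprc and C1qa were at 0. Depleted EpCAM-negative cells had Ptprc at 4.84 CPM and C1qa at 10.4 CPM with Mertk at 3.68 ± 1.71 CPM. In depleted EpCAM-positive cells these were 4.43 and 8.87 CPM with Mertk at 25.7 ± 9.92 CPM. In control EpCAM-positive cells they were 0.764 and 2.58 CPM with Mertk at 15.9 ± 5.39 CPM. Between the fractions of depleted tumours Cd163 was called higher in EpCAM-negative cells (14.2% of all features) and Csf1r lower (14.3%). The other 18 of the 20 markers did not pass there. In depleted against control EpCAM-negative cells, where Mertk was lower, 15 of the 20 markers were called higher (21.9% of all features). Only 1, Cd163, was called lower (23.2%). The difference of the contrasts, negative for Mertk, was called positive for 8 of the 20 (9.33%) and negative for 0 (8.69%). In the EpCAM-positive groups the macrophage growth factor receptor Csf1r averaged 70.5 CPM (depleted) and 85.4 CPM (control), whereas the EpCAM-negative groups had 17.1 CPM (depleted) and 4.89 CPM (control). The part of macrophages in the Mertk level was not tested.

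**Figure D1:**
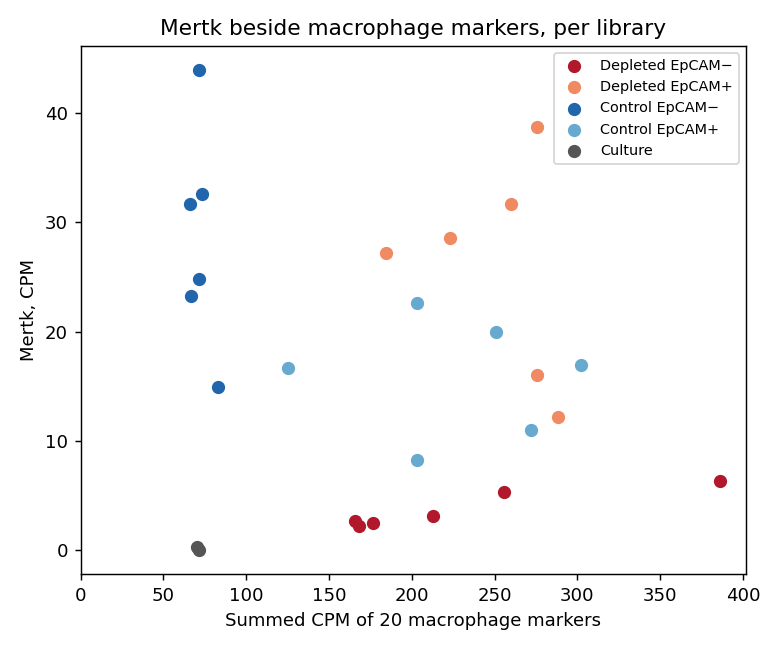
Mertk in CPM against the summed CPM of 20 macrophage markers, with a point for each of the 26 libraries. The control EpCAM-negative libraries combine sums of 66.1 to 82.8 CPM with 14.9 to 43.9 CPM of Mertk, and the depleted EpCAM-negative libraries combine sums of 166 to 386 CPM with 2.22 to 6.32 CPM of Mertk. The depleted EpCAM-positive libraries combine sums of 184 to 289 CPM with 12.2 to 38.7 CPM of Mertk. In control EpCAM-positive libraries the sums are 125 to 302 CPM with 8.28 to 22.6 CPM of Mertk.

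Tyro3, the TAM receptor best known from neurons, was low and even across the tumour groups. The libraries ran from 6.21 through 6.68 to 9.56 CPM in depleted EpCAM-negative and from 4.23 through 5.31 to 6.91 CPM in depleted EpCAM-positive cells. They ran from 7.46 through 8.23 to 12.9 CPM in control EpCAM-negative and from 4.21 through 8.00 to 10.0 CPM in control EpCAM-positive cells, and were 15.2 and 12.2 CPM in the cultures. Each group overlapped its neighbour in the order of levels. Tyro3 did not pass the test between the fractions of depleted tumours (0.43 ± 0.19, edgeR adjusted p = 0.0913) or of control tumours (0.29 ± 0.19, edgeR adjusted p = 0.263). In depleted tumours it was higher in the EpCAM-negative library of 6 of 6 pairs, and with the replicate number as a block its value was 0.42 (edgeR adjusted p = 0.0359). Depleted against control gave −0.32 ± 0.19 in EpCAM-negative cells (edgeR adjusted p = 0.168) and −0.46 ± 0.19 in EpCAM-positive cells (edgeR adjusted p = 0.0523). The second value passed when depleted EpCAM-positive library 2 (−0.51) or 4 (−0.54), or control EpCAM-positive library 1 (−0.58) or 6 (−0.51), was left out.

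The promoters of the receptor that was higher in depleted tumours, Axl, and of the ligands that were lower there, Gas6 and Pros1, are shown for comparison. Each is the 250 bases before the annotated start from RefSeq on build GRCm38.p6, written on the strand of the gene, with GC boxes (GGGCGG on either strand, the letters bound by Sp1 and Sp3) in capitals. All 5 TAM genes were found in the promoter table.
Axl, chr7:25788734-25788983, minus strand: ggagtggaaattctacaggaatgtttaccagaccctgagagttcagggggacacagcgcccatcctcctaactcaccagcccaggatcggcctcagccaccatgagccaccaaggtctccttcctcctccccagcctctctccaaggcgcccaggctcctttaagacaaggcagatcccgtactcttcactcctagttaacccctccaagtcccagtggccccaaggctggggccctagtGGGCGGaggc
Gas6, chr8:13494536-13494785, minus strand: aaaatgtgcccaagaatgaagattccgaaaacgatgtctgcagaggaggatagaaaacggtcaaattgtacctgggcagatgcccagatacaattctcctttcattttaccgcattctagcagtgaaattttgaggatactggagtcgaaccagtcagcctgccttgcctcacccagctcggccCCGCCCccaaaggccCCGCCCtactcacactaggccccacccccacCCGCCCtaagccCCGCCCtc
Pros1, chr16:62854057-62854306, plus strand: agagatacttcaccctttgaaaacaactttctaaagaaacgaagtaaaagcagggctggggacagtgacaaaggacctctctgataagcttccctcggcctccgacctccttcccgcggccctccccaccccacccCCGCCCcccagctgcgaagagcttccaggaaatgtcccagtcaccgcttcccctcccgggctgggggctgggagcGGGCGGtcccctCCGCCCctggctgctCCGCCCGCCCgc
The Axl window had 1 GC box, the Gas6 window 4 and the Pros1 window 5, of which the last 2 overlap, and the windows of Mertk and Tyro3, both on chromosome 2, had 3 each. At least 1 GC box was present in 32.7% of 32851 promoter windows of this length. GGAATG, the letters bound by TEAD factors, occurred 1 time in the Axl window and not in the other 4, against 12.6% of all windows. TGANTCA (AP-1, in 6.75% of all windows) and ACGTG (the core bound by hypoxia-inducible factors, in 16.6%) were in none of the 5 windows. Both strands were searched.

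Gas6, the ligand of all TAM receptors, was the gene with the largest change between treatments among the 5. The libraries of depleted EpCAM-negative cells ran from 1.27 through 3.80 to 5.74 CPM, against 21.7 through 43.3 to 72.6 CPM in control EpCAM-negative cells. In depleted EpCAM-positive cells they ran from 1.83 through 7.32 to 10.3 CPM, against 97.0 through 170.2 to 226 CPM in control EpCAM-positive cells. No depleted library overlapped a control library in either fraction. Gas6 was 12.0-fold lower in depleted EpCAM-negative cells (log2 fold change −3.59 ± 0.36, edgeR adjusted p = 7.8e-09) and 23.3-fold lower in depleted EpCAM-positive cells (−4.54 ± 0.36, edgeR adjusted p = 2.21e-10). These ranked above 92.6% and 96.0% of all tested features by size of change.

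Between the fractions Gas6 ran against Axl. In control tumours it was lower in EpCAM-negative cells, with means of 46.7 ± 18.9 CPM against 161 ± 55.8 CPM in EpCAM-positive cells and no overlap (−1.79 ± 0.32, edgeR adjusted p = 9.9e-05). In depleted tumours the value was −0.83 ± 0.36 and did not pass the test (edgeR adjusted p = 0.0862), with 5 of 6 pairs lower in the EpCAM-negative library. Without depleted EpCAM-positive library 1, the lowest of its group at 1.83 CPM, it was −1.03 (edgeR adjusted p = 0.0193). The difference between the 2 contrasts was 0.96 ± 0.47 and did not pass (edgeR adjusted p = 0.177). In the annotation, 34 exon bases of Gas6 are shared with Tmem255b on the opposite strand, and the kit does not mark strand. Tmem255b had 0 counts in all depleted and cultured libraries, 0 to 8 in control EpCAM-negative and 7 to 22 in control EpCAM-positive libraries, where Gas6 had 3431 to 7023.

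Pros1 was lower in depleted tumours too, and its order between the fractions turned round with treatment. The libraries of depleted EpCAM-negative cells ran from 61.3 through 86.8 to 106 CPM, against 212 through 461 to 511 CPM in control EpCAM-negative cells. The libraries of depleted EpCAM-positive cells ran from 111 through 157 to 164 CPM, against 185 through 290.0 to 330 CPM in control EpCAM-positive cells. Again no depleted library overlapped a control library of its fraction. Pros1 was 4.91-fold lower in depleted EpCAM-negative cells (log2 fold change −2.29 ± 0.21, edgeR adjusted p = 1.51e-09) and 1.82-fold lower in depleted EpCAM-positive cells (−0.86 ± 0.20, edgeR adjusted p = 0.00123).

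Within depleted tumours Pros1 was lower in EpCAM-negative cells, at 85.8 ± 17.7 CPM against 147 ± 22.2 CPM in EpCAM-positive cells, without overlap (−0.77 ± 0.20, edgeR adjusted p = 0.0046). Within control tumours it was higher in EpCAM-negative cells, at 421 ± 116 CPM against 266 ± 62.6 CPM in EpCAM-positive cells. That change was 0.66 ± 0.20 (edgeR adjusted p = 0.0144), with overlapping groups. The difference between the 2 contrasts was −1.43 ± 0.28 (edgeR adjusted p = 0.000721). Mertk and Pros1, a receptor and a ligand that bind each other, thus both had a negative difference, and Axl, Tyro3 and Gas6 had none that passed.

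**Figure D2:**
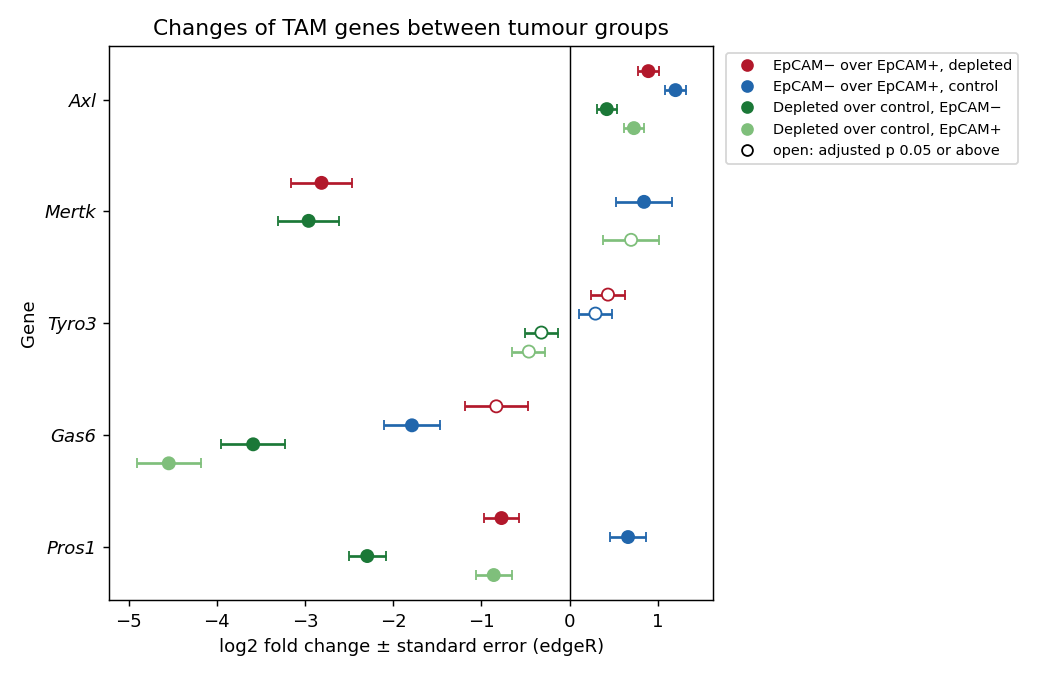
Log2 fold change ± standard error of each TAM gene in 4 comparisons of tumour groups, with open circles for an adjusted p of 0.05 or above. Depleted-over-control values of Gas6 and Pros1 lie left of 0 in both fractions and those of Axl right of 0, and the EpCAM-negative-over-EpCAM-positive values of Mertk and Pros1 lie on opposite sides of 0 in depleted and control tumours.

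Counted over the 5 genes, 3 were called between the fractions of depleted tumours, against 28.5% of all tested features, with 1 higher in EpCAM-negative cells (14.2% of features) and 2 lower (14.3%). Between those of control tumours 4 were called, against 27.9% of features, with 3 higher (13.3%) and 1 lower (14.5%). The difference of the contrasts was called for 2 of 5, against 18% of all features, with 0 positive (9.33%) and 2 negative (8.69%). Depleted against control was called for 4 of 5 in EpCAM-negative cells, against 45.1% of all features, with 1 higher (21.9%) and 3 lower (23.2%). In EpCAM-positive cells it was called for 3 of 5, against 40%, with 1 higher (17.6%) and 2 lower (22.4%). Counts over 5 genes are a description and were not tested.

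Several fibroblast markers were lower in depleted tumours, as the ligands were, while pericyte markers went both ways. Of 9 tested fibroblast markers, 6 were called lower in depleted than in control EpCAM-negative cells (23.2% of all features) and 4 in EpCAM-positive cells (22.4%), and the others did not pass. Of 8 tested pericyte and smooth muscle markers, 2 were higher (21.9%) and 2 lower (23.2%) in depleted EpCAM-negative cells, and 2 higher (17.6%) and 4 lower (22.4%) in depleted EpCAM-positive cells. The medians were −2.37 and −1.61 for the fibroblast list and 1.41 and −3.39 for the pericyte list. Higher in both fractions of depleted tumours were the receptor gene Notch3 and Des, the gene of the muscle filament protein desmin. Des was near the floor, at means of 0.193 and 0.163 CPM in depleted EpCAM-negative and EpCAM-positive cells. It was at 0 in 2 and 3 of their 6 libraries, and averaged 0.00513 and 0.0109 CPM in the control groups. Notch3 averaged 8.08 CPM in depleted against 1.97 CPM in control EpCAM-negative cells, and 80.5 CPM in depleted against 26.8 CPM in control EpCAM-positive cells. Summed over 11 fibroblast markers, libraries ran from 168 to 252 CPM in depleted EpCAM-negative and from 79.0 to 232 CPM in depleted EpCAM-positive cells, against 1293 to 5050 CPM in control EpCAM-negative and 1229 to 3242 CPM in control EpCAM-positive cells. The cultures had 17.4 and 18.8 CPM. The collagen gene Col1a1 averaged 34.8 and 42.6 CPM in the depleted EpCAM-negative and EpCAM-positive cells, against 1544 and 485 CPM in the control ones, and the proteoglycan gene Dcn 6.43 and 1.95 CPM against 1316 and 1899 CPM. Col1a2, a collagen gene that did not pass the test between treatments in either fraction, averaged 19.6 and 29.7 CPM in those depleted groups against 13.4 and 38.7 CPM in the control ones. Between 6 and 10 of the 11 markers were detected in each library, and Thy1, which encodes the sorted-out CD90, was at 0 in all 6 control EpCAM-negative libraries and averaged at most 0.0418 CPM in any group. Summed over 9 pericyte and smooth muscle markers, libraries ran from 16.2 to 42.8 CPM and from 58.8 to 121 CPM in the depleted EpCAM-negative and EpCAM-positive groups, against 577 to 1687 CPM and 295 to 641 CPM in the control ones. Most of the control sums came from Pdgfrb, at 1064 ± 314 CPM in control EpCAM-negative and 399 ± 94.0 CPM in control EpCAM-positive cells. The part of stromal cells in the Gas6 and Pros1 levels was not tested. Summed dendritic cell markers ran from 4.14 to 9.12 CPM and from 4.73 to 11.9 CPM in the depleted EpCAM-negative and EpCAM-positive groups. In the control ones they ran from 37.2 to 59.3 CPM and from 33.7 to 49.2 CPM, most of it Zbtb46 (means of 40.9 and 39.0 CPM). Endothelial markers were at most 63.3 CPM in any library, in the depleted EpCAM-positive group, where Cdh5 averaged 38.3 CPM. Adipocyte markers were at most 6.30 CPM and T and NK cell markers at most 2.22 CPM in any library.

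Against the cultured line the ligands and Mertk were higher in every tumour group, and the other receptors were not. Pros1 had 42 and 135 counts in the cultures (1.35 and 3.45 CPM) and Gas6 18 and 16 counts (0.577 and 0.409 CPM). The log2 fold changes of Pros1 over culture were 5.13 ± 0.41 in depleted EpCAM-negative, 5.90 ± 0.43 in depleted EpCAM-positive, 7.43 ± 0.46 in control EpCAM-negative and 6.76 ± 0.44 in control EpCAM-positive cells. Those of Gas6 were 2.98 ± 0.69, 3.81 ± 0.68, 6.57 ± 0.73 and 8.36 ± 0.77 in the same groups, and the largest edgeR adjusted p of these 8 ligand tests was 0.000936. The values of Pros1 depend on which culture is used, since they were 4.63, 5.40, 6.93 and 6.26 without culture 1 and 5.95, 6.73, 8.25 and 7.60 without culture 2. Mertk was called higher in all 4 tumour groups, with log2 values of 4.67, 7.48, 7.63 and 6.79 and a largest edgeR adjusted p of 1.91e-05. Its size rests on 10 counts in culture 2. The values were 3.81, 6.62, 6.77 and 5.93 without culture 1, and without culture 2 they were 9.61, 12.43, 12.58 and 11.74 against a culture at 0, which are no bounds.

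Axl was lower than in culture by −1.08 ± 0.15 in depleted EpCAM-positive, −0.61 ± 0.16 in control EpCAM-negative and −1.81 ± 0.15 in control EpCAM-positive cells, with edgeR adjusted p-values of at most 0.00197. In depleted EpCAM-negative cells the value was −0.19 ± 0.16 and did not pass (edgeR adjusted p = 0.363). Tyro3 was lower than in culture by −0.90 ± 0.25 in depleted EpCAM-negative, −1.34 ± 0.25 in depleted EpCAM-positive and −0.87 ± 0.25 in control EpCAM-positive cells, and without culture 1 the first was −0.74 (edgeR adjusted p = 0.104) and the last −0.71 (edgeR adjusted p = 0.103). In control EpCAM-negative cells Tyro3 gave −0.58 ± 0.25 (edgeR adjusted p = 0.0567), and −0.71 without library 3 of that group (edgeR adjusted p = 0.0193). Of the 5 genes, 4 were called against culture in depleted EpCAM-negative cells (42.4% of all features), 3 of them higher (21.8%) and 1 lower (20.6%). In depleted EpCAM-positive cells 5 were called (39.5%), 3 higher (20.9%) and 2 lower (18.6%). In control EpCAM-negative cells 4 were called (50.7%), 3 higher (26.5%) and 1 lower (24.2%), and in control EpCAM-positive cells 5 (50.2%), 3 higher (27.8%) and 2 lower (22.4%).

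Levels of different genes were compared as CPM per kilobase of exon. On this scale Axl made 98.8% ± 0.337 of the summed receptor transcript in depleted EpCAM-negative, 93.0% ± 2.66 in depleted EpCAM-positive, 94.1% ± 1.68 in control EpCAM-negative, 91.8% ± 2.68 in control EpCAM-positive and 98.9% ± 0.223 in cultured cells. Mertk made 0.519% ± 0.305 in depleted EpCAM-negative cells and between 4.79% and 6.20% on average in the other 3 tumour groups. The share of Tyro3 averaged between 0.681% and 2.03% in the tumour groups and was 1.12% ± 0.244 in the cultures.

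Of the summed ligand transcript, also per kilobase, Gas6 made 7.07% ± 3.04 in depleted EpCAM-negative and 6.91% ± 2.58 in depleted EpCAM-positive cells, against 15.2% ± 4.55 in control EpCAM-negative and 48.6% ± 4.74 in control EpCAM-positive cells. The 6 control EpCAM-positive libraries, from 41.8% to 53.5%, lay above every other tumour library, of which the highest had 21.0%. Protein S transcript therefore outweighed Gas6 in 3 of the 4 tumour groups, and in control EpCAM-positive cells the log2 ratio of Gas6 to Pros1 was −0.08 ± 0.28 (SD). The ratio of ligand to receptor transcript was 0.130 ± 0.0203 in depleted EpCAM-negative and 0.393 ± 0.0876 in depleted EpCAM-positive cells, against 0.887 ± 0.255 in control EpCAM-negative and 2.22 ± 0.893 in control EpCAM-positive cells, and 0.00388 ± 0.00136 in the cultures. Neither of the depleted groups overlapped the control group of its fraction in this ratio. These shares and ratios are transcript levels and were not tested.

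**Figure D3:**
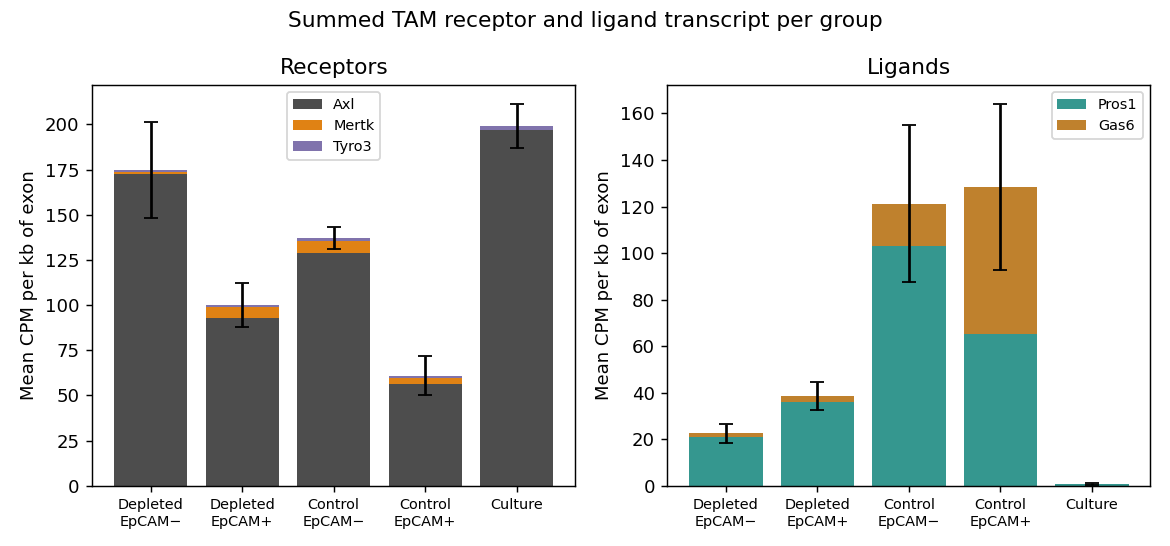
Mean CPM per kilobase of exon of the receptors (left) and ligands (right), stacked by gene, with the SD of the summed level over the libraries of a group. Axl fills more than 90% of each receptor bar, and the ligand bars of depleted tumours (22.5 and 38.6) are lower than those of control tumours (121 and 128).

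**Figure D4:**
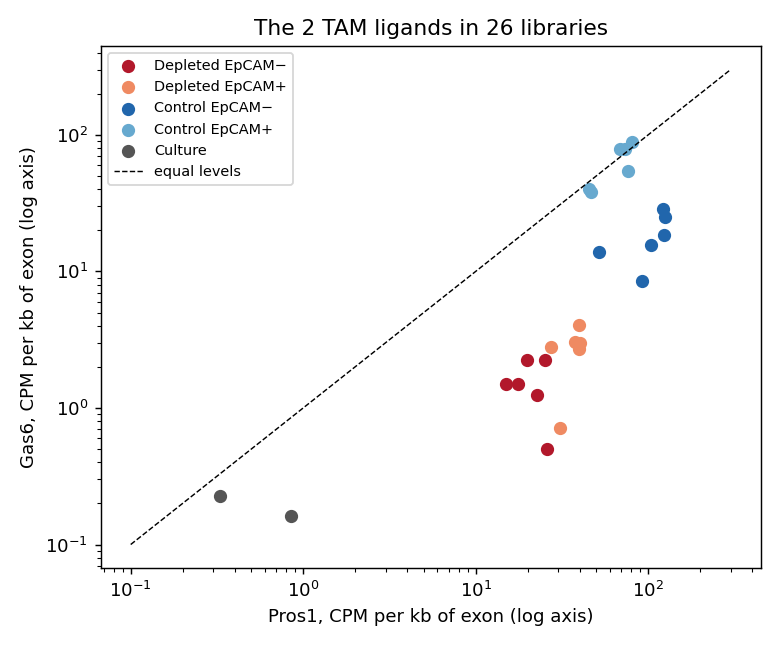
Gas6 against Pros1 in CPM per kilobase of exon for each of the 26 libraries, on log axes, with a dashed line where both are equal. The control EpCAM-positive libraries lie along the line, and all other tumour libraries lie below it, with more Pros1 than Gas6.

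The features whose profile was nearest to each TAM gene were found by the root mean square distance of mean-centred log2 CPM over the 26 libraries, among 12070 features with a symbol and a mean of at least 1 CPM. For Axl these were Specc1 (0.279), 4930503L19Rik (0.292) and Pold4 (0.308), against a spread of 0.661 of Axl itself around its mean. For Tyro3 they were Mrpl20, Timm17a and Mrpl36 (0.271 to 0.288), genes of the mitochondrial ribosome and protein import, against a spread of 0.456. For Pros1 they were the matrix gene Sparc (0.559), the myosin light chain kinase gene Mylk (0.565) and Edil3 (0.577), against a spread of 1.93. Sparc averaged 902 CPM in depleted EpCAM-negative and 811 CPM in depleted EpCAM-positive cells, 2925 CPM in control EpCAM-negative and 1498 CPM in control EpCAM-positive cells, and 23.5 CPM in the cultures. For Mertk the nearest were Igfbp7 (0.741), which encodes an IGF-binding protein of the matrix, Tmem119 (0.836) and Pros1 (0.861), against a spread of 2.14. Igfbp7 averaged 37.6 CPM in depleted EpCAM-negative, 137 CPM in depleted EpCAM-positive, 268 CPM in control EpCAM-negative and 115 CPM in control EpCAM-positive cells, and 1.09 CPM in the cultures. For Gas6 they were the matrix genes Spon1 (0.955) and Matn4 (0.964) and C130050O18Rik (0.984), against a spread of 2.57. Likeness over 26 libraries that fall into 5 groups is a description of group levels.

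Genes that act with the TAM system were read from lists chosen by role. Gas6 and protein S need their Gla domain carboxylated, by the carboxylase Ggcx with vitamin K recycled by Vkorc1 and Vkorc1l1, and Calu binds and restrains that enzyme. In depleted tumours 0 of these 4 genes were called between the fractions (28.5% of all features), and in control tumours 3 were higher in EpCAM-negative cells (13.3%), Ggcx by 0.84 ± 0.11, Calu by 0.81 ± 0.08 and Vkorc1 by 0.40 ± 0.13. The difference of the contrasts passed for Ggcx (−0.64 ± 0.16) and Calu (−0.73 ± 0.11). Ggcx averaged 97.2 ± 13.1 CPM in depleted against 195 ± 25.8 CPM in control EpCAM-negative cells (−1.004 ± 0.11), and 84.3 ± 10.5 CPM in depleted against 109 ± 18.7 CPM in control EpCAM-positive cells (−0.37 ± 0.11). Depleted against control, 3 of the 4 were lower in EpCAM-negative cells (23.2% of all features), with a list median of −0.59 beside 0.03 over all features. In EpCAM-positive cells 2 were lower (22.4%) and 1, Calu, was higher (17.6%), with a list median of −0.16 beside −0.02. Calu averaged 1352 CPM in depleted against 1154 CPM in control EpCAM-positive cells. In every tumour group Ggcx, Calu and Vkorc1, 3 of the 4, were higher than in culture. Of all features 21.8% (depleted EpCAM-negative), 20.9% (depleted EpCAM-positive), 26.5% (control EpCAM-negative) and 27.8% (control EpCAM-positive) were higher than in culture.

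Galectin-3, the product of Lgals3 and a reported ligand of Mertk, was higher in the EpCAM-negative fraction in depleted tumours (0.57 ± 0.12) and lower in it in control tumours (−0.35 ± 0.12). Its means were 918 ± 130 CPM in depleted EpCAM-negative against 616 ± 73.4 CPM in depleted EpCAM-positive cells, and 883 ± 99.4 CPM in control EpCAM-negative against 1127 ± 221 CPM in control EpCAM-positive cells. Its difference of the contrasts, 0.93 ± 0.17, thus had the opposite sign to that of Mertk. Tub and Tulp1, also reported as ligands, did not pass the filter on low counts, with means of 0.00484 and 0.037 CPM over all libraries.

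Phosphatidylserine exposure is set by scramblases such as Ano6 and by flippases such as Atp11a with their subunit Tmem30a. Of the 6 tested genes of 8 in this list, the EpCAM-negative fraction had 1 higher (14.2% of all features) and 3 lower (14.3%) in depleted tumours, and 1 higher (13.3%) and 2 lower (14.5%) in control tumours. Atp11a was lower in the EpCAM-negative fraction under both treatments (−0.54 ± 0.12 in depleted and −0.64 ± 0.12 in control tumours). Among 11 tested of 14 other bridges and receptors of phosphatidylserine, 3 were higher (21.9% of all features) and 4 lower (23.2%) in depleted than in control EpCAM-negative cells, and 4 were higher (17.6%) and 4 lower (22.4%) in depleted than in control EpCAM-positive cells. Mfge8, a bridge from phosphatidylserine to integrins, fell in depleted tumours like Gas6 and Pros1, by 0.99 ± 0.13 in EpCAM-negative and by 1.41 ± 0.13 in EpCAM-positive cells on the log2 scale. Itgb5, which encodes an integrin subunit that binds Mfge8, averaged 452 ± 40.2 CPM in depleted against 572 ± 64.7 CPM in control EpCAM-negative cells (−0.34 ± 0.09), and 428 ± 34.9 CPM in depleted against 533 ± 69.8 CPM in control EpCAM-positive cells (−0.32 ± 0.09). The engulfment receptor Lrp1 was higher in EpCAM-negative cells under both treatments (0.62 ± 0.11 and 0.72 ± 0.11) and higher in depleted tumours in both fractions (0.39 ± 0.11 and 0.49 ± 0.11), which are the directions of Axl.

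Axl and Mertk are shed from the cell surface by the proteases Adam10 and Adam17, whose activity is guided by the rhomboid-like proteins Rhbdf1 and Rhbdf2 and checked by the inhibitor Timp3. In depleted tumours Adam10 (−0.45 ± 0.11) and Adam17 (−0.61 ± 0.08) were lower in EpCAM-negative cells, and in control tumours both were higher there (0.44 ± 0.11 and 0.47 ± 0.08). Their differences of the contrasts were −0.89 ± 0.16 and −1.08 ± 0.12, negative like that of Mertk. Timp3 averaged 144 ± 28.3 CPM in depleted against 723 ± 115 CPM in control EpCAM-negative cells (−2.33 ± 0.14), and 34.1 ± 5.92 CPM in depleted against 694 ± 118 CPM in control EpCAM-positive cells (−4.35 ± 0.15). In depleted tumours Timp3 was higher in the EpCAM-negative fraction (2.07 ± 0.14), and the contrast gave 0.06 ± 0.13 in control tumours, without a call. Rhbdf2 was higher in depleted tumours in both fractions (0.83 ± 0.13 and 0.55 ± 0.13). Of the 5 genes, 1 was called higher (21.9% of all features) and 4 lower (23.2%) in depleted than in control EpCAM-negative cells, and 3 higher (17.6%) and 1 lower (22.4%) in EpCAM-positive cells.

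Of 26 genes of proximal signalling and engulfment, all tested, 9 were higher (21.9% of all features) and 9 lower (23.2%) in depleted than in control EpCAM-negative cells, and 5 higher (17.6%) and 8 lower (22.4%) in EpCAM-positive cells. The list had medians of 0.11 and −0.13, beside 0.03 and −0.02 over all features. The kinase gene Akt1 was higher in depleted tumours, by 0.20 ± 0.07 in EpCAM-negative and by 0.60 ± 0.07 in EpCAM-positive cells, and the GTPase gene Rac1 by 0.21 ± 0.05 and 0.19 ± 0.05. The adaptor gene Crk was higher in depleted EpCAM-negative cells (0.41 ± 0.08), and its value in EpCAM-positive cells was 0.16 ± 0.08, without a call. TAM receptors lower innate responses through the type I interferon receptor and the suppressors Socs1 and Socs3. Of 7 genes in this list, 4 were lower (23.2% of all features) and 1 higher (21.9%) in depleted than in control EpCAM-negative cells. In EpCAM-positive cells 4 were lower (22.4%) and 1 higher (17.6%). Socs1, Socs3 and Ifnar2 were among the lower ones in both fractions, and Jak1 was the higher one. Socs1 averaged 6.71 ± 1.60 CPM in depleted against 17.2 ± 2.86 CPM in control EpCAM-negative cells (−1.36 ± 0.18), and 4.32 ± 0.677 CPM in depleted against 8.14 ± 2.06 CPM in control EpCAM-positive cells (−0.91 ± 0.18). Socs3 changed by −0.90 ± 0.16 and −1.90 ± 0.16 in the EpCAM-negative and EpCAM-positive cells. Jak1, Socs3, Ifnar1 and Ifnar2 were higher than in culture in every tumour group. Higher than in culture were 7 of the 7 genes in depleted EpCAM-negative (21.8% of all features) and 6 in depleted EpCAM-positive cells (20.9%). In control EpCAM-negative (26.5%) and control EpCAM-positive cells (27.8%) 7 were higher.

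Among 16 factors reported to act on Axl, the EpCAM-negative fraction of depleted tumours had 8 higher (14.2% of all features) and 2 lower (14.3%), with a list median of 0.29 beside 0.01 over all features. In control tumours 5 were higher (13.3%) and 3 lower (14.5%), with a median of −0.01. The AP-1 genes Fos (0.66 ± 0.14), Jun (0.34 ± 0.12) and Junb (0.67 ± 0.18) were higher in EpCAM-negative cells of depleted tumours, while in control tumours Jun was lower there (−0.45 ± 0.12), and Fos (−0.32 ± 0.14) and Junb (−0.07 ± 0.17) were not called. Axl was higher in the EpCAM-negative fraction in both cases. Of 8 nuclear receptors and factors reported for Mertk, the EpCAM-negative fraction had 2 higher (14.2%) and 1 lower (14.3%) in depleted tumours, and 1 higher (13.3%) and 2 lower (14.5%) in control tumours. The retinoid X receptor gene Rxra was lower in the EpCAM-negative fraction under both treatments (−0.49 ± 0.10 and −0.57 ± 0.09) and lower in depleted tumours in both fractions (−0.76 ± 0.10 and −0.84 ± 0.10). Rxra, Rara and Nr1h2, the most abundant genes of this list, had differences of the contrasts of 0.08 to 0.31, none of which passed.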

How the data were processed

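The values used are raw counts per feature, as the authors deposited them for all 26 libraries. Per the submitters' processing notes, STAR was used with build mm9. How reads were counted, with which annotation and strand setting, and the STAR version are not given in the sources used. A second deposited table, normalized with DESeq2 1.22.2 per the submitters' processing notes, was not used. Per the labels' protocols, cDNA was made from 0.1 to 1.0 ng of RNA with the SMARTer v4 kit (10, 12 or 14 PCR cycles), and libraries were read as single 50-base reads, so neither strand nor single molecules are marked.

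From the deposited counts, edgeR 4.0.16 (R 4.3.3) was run with TMM scaling, its filter on low counts and a quasi-likelihood fit with 1 coefficient per group over all 26 libraries. 9 comparisons were tested, with Benjamini-Hochberg adjustment over 16637 features and a threshold of 0.05. CPM were divided by the exon length of GENCODE M21 (another build than mm9, so no coordinates of it are printed) to compare genes. Symbols were matched for 47224 of 47729 Ensembl features. The fits were tested on simulated data. Alternatives were other scalings, no filter, DESeq2 1.42.0, fewer groups, a replicate block, equal depth and leaving out each library.

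The members, gene lists and alternatives were chosen with earlier results of these data known. Genes named are the 5 members, the 3 most abundant genes of each longer list, all genes of lists of up to 5, the 3 nearest profiles of each member, and the sort checks. Socs1 and Ifnar2 in the interferon list and the marker genes named beside Mertk and the ligands were picked from their lists after their values were seen, and 1 gene is not reported here. Same-numbered fractions of depleted tumours were taken as pairs. The design says that both fractions were sorted from each tumour, which holds for control tumours too. The labels do not say that equal numbers mark the same tumour. Over 9080 features of at least 10 CPM the deviations of the depleted pairs correlated at 0.108 to 0.294. There 6 of 6 numbers matched their own best in both directions. Over all 16637 tested features the correlations were 0.0175 to 0.0469 and 1 of 6 numbers matched best, so this pairing is an assumption. In control tumours the correlations ran from 0.0716 to 0.433 (5 of 6 matched best). Over all features they ran from 0.0497 to 0.172 (4 of 6), and the control numbers were not taken as pairs. The block value stands beside a result where it changes a depleted call.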

Additional observations from a re-analysis of the deposited data

Results flagged for a closer look

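Mertk is listed because its EpCAM-negative against EpCAM-positive change differed between treatments, with a depleted minus control value of −3.65 on the log2 scale (edgeR adjusted p = 3.89e-06). In depleted tumours 6 of 6 pairs were lower in the EpCAM-negative library, without overlap, and in control tumours the groups overlapped, with a change of 0.84 (edgeR adjusted p = 0.0489). Of the same-numbered control libraries, which were not taken as pairs, 6 of 6 were higher in the EpCAM-negative one. Pros1 is listed for the same reason, with a value of −1.43 (edgeR adjusted p = 0.000721), 6 of 6 pairs lower in depleted tumours, and a change of 0.66 between overlapping groups in control tumours. Its level too was higher in the EpCAM-negative one of 6 of 6 same-numbered control libraries. Of the 20 sets of 6 libraries examined for the 5 genes, none held a library that Dixon's criterion sets apart, where chance alone marks about 1 set in 20.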

How the results depend on the processing

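Across 850 alternative values of the 5 genes in 9 comparisons no direction turned, and 819 kept their side of the threshold. Each refit gave several of these values, so they are not independent. Mertk between the fractions of control tumours was no longer called with RLE scaling (0.83), total-count scaling (0.70), no filter (0.84) and equal depth (0.83), and gave 0.68 to 0.97 with 1 library left out. With a replicate block it was 0.82 (edgeR adjusted p = 0.0156), and the numbers in control tumours were not taken as pairs. Tyro3 in control EpCAM-negative cells against culture was called with RLE (−0.61), upper-quartile (−0.60) and total-count scaling (−0.89) and DESeq2 (−0.60), and gave −0.76 to −0.41 with 1 library left out. Tyro3 in depleted against control EpCAM-positive cells was called with DESeq2 (−0.46) and equal depth (−0.49), and gave −0.58 to −0.36 with 1 library left out. Mertk in that comparison was called with only the groups compared (0.71), and gave 0.54 to 0.84. Leave-one-out values were −1.03 to −0.65 for Gas6 between the fractions of depleted tumours, and against culture −1.10 to −0.74 (depleted EpCAM-negative) and −1.05 to −0.71 (control EpCAM-positive) for Tyro3. The replicate block called Tyro3 between the fractions of depleted tumours (0.42) and changed no other call of the 5 genes. With it 5132, 4904 and 3405 features were called for depleted tumours, control tumours and the difference, against 4738, 4634 and 2999. With RLE, 1 gene of phosphatidylserine scrambling and flipping differed between the contrasts, against 2. Total-count scaling gave Axl 591 CPM in control EpCAM-negative cells and 1118 CPM in the cultures. It shifted the median of all features from 0.03 to 0.22 in depleted against control EpCAM-negative cells and from −0.01 to −0.15 between the fractions of control tumours. The share of called features that were higher became 65.7% (main 48.5%) and 26.7% (main 47.9%) there, 75.1% (51.8%) for the difference, 41.2% (52.9%) for depleted EpCAM-positive cells against culture and 36.3% (52.3%) for control EpCAM-negative cells against culture. The causes were not tested. Mertk, Gas6 and Pros1 had at most 135 counts in a culture, which limits the precision of their folds over culture.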
